A study of Mus musculus with 14 samples.

Results

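The transcriptomes of Tregs lacking miR-15/16 were compared with those of wild-type Tregs, in 9 of the 14 RNA-seq libraries of the study: 5 of miR-15/16 cKO Tregs and 4 of unfractionated WT Tregs. Genes were chosen by a threshold alone, at least 10 normalized counts in 2 of the 9 libraries, and were kept if they lay on an autosome, which left 14915 of 48363 genes with values. The question the comparison addresses is which mRNAs, and which families of mRNAs, differ in abundance between Tregs with and without this miRNA family.

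The cKO mice were miR-15/16 fl/fl Foxp3 Cre, with loxP sites around the miR-15a/16-1 and the miR-15b/16-2 cluster, and the WT mice were miR-15/16 wt/wt Foxp3 Cre. Both groups carried the Foxp3 allele that drives YFP and Cre, so deletion was limited to cells that had expressed Foxp3, and CD4+ cells positive for the reporter were sorted from a pool of spleen with inguinal, axillary and brachial lymph nodes. The mice were untreated, and neither age nor sex was given for the single libraries. The libraries are labelled as biological replicates, and the p-values measure the spread between them. Each library sums over all sorted Tregs, so that fewer cells expressing a gene and less RNA per cell cannot be told apart.

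A miRNA guides an Argonaute protein to mRNAs whose 3′ UTR pairs with its seed, the bases near its 5′ end, and such pairing shortens the life of the mRNA and limits its translation. The miR-15/16 family is known for restraining cell cycle and survival genes in lymphocytes. Loss of a miRNA can therefore raise its direct targets, while genes downstream of these can change in either direction. The 3 mature miRNAs encoded by the deleted clusters, taken from RefSeq on GRCm38.p6, are shown because they share 1 seed, set in capitals, which defines the matches counted in the 3′ UTRs:
mmu-miR-15a-5p: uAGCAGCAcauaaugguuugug
mmu-miR-15b-5p: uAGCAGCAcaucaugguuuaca
mmu-miR-16-5p: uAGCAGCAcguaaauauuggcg
miR-15a lies at chr14:61632075-61632096 on the minus strand and miR-15b at chr3:69009775-69009796 on the plus strand, and miR-16 is encoded at both clusters, at chr14:61631936-61631957 (minus) and chr3:69009918-69009939 (plus). The transcripts of these 4 miRNA genes were listed at 0 in all 9 libraries, so the deletion itself was not visible in the mRNA data. Dleu2, the long noncoding host transcript of the chromosome 14 cluster, stood at 2651, 2587, 2713, 2121 and 2524 normalized counts in cKO replicates 1 to 5 and at 963, 86.3, 695 and 1099.7 in WT replicates 1 to 4 (log2 2.32 ± 0.51, limma adjusted p = 0.0147). Every cKO library was above every WT library, and without WT replicate 2, the lowest, the log2 value was 1.47. Here and below, single libraries are given in the order of their replicate numbers, a group level is a mean ± SD over 5 cKO or 4 WT libraries in normalized counts, and a log2 value in brackets is the fold change (cKO minus WT) ± its standard error.

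The libraries held 30055573 to 33988565 reads in genes and expressed the markers of their gate, with Cd4 at 37039 to 45018 and Foxp3 at 17804 to 21324 normalized counts. Of markers of other cells, Cd8a was at most 60.4, Ncr1 at most 6.3 and Lyz2 at most 88.5 normalized counts in any library. Other members of their lists were higher, as the sums below show. The macrophage marker Adgre1 was at 24.2 to 515 in cKO and 79.1 to 931 in WT libraries. The libraries differed in 3 further ways that the groups only partly share. All 5 cKO libraries and WT replicate 3 were female by Xist, and the other 3 WT libraries were male. Immediate early and stress genes, 22 in number, averaged (log2 scale) 13.5 to 13.7 in WT replicates 1, 2 and 3 and cKO replicates 4 and 5, 12.7 to 13.0 in the first 3 cKO libraries and 11.9 in WT replicate 4. Fewer genes had a read in WT replicates 2 and 4 (13920 and 14525) than in the other libraries (16697 to 18200). The 12 myeloid markers summed to 1260 to 5020 normalized counts in cKO libraries and 1651 to 7675 in WT libraries, the 7 dendritic cell markers to 788 to 1938 and 1050 to 4914, and the 8 B cell markers to 580 to 884 and 226 to 603. In the same order of groups, the 5 plasma cell markers summed to 3486 to 4582 and 3078 to 3956. The 2 CD8 T cell markers summed to 312.5 to 461 and 301 to 661, and the 5 NK cell markers to 144 to 320 and 289.5 to 549. The 6 erythroid markers summed to 0 to 18.9 and 0 to 287. The part of these differences in the results below was not tested.

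Loss of miR-15/16 came with 323 higher (2.17%) and 226 lower (1.52%) genes of 14915, by limma on log2(normalized count + 1) with a Benjamini-Hochberg adjusted p under 0.05. A further measure that needs no model was whether the groups overlap. All 5 cKO libraries lay above all 4 WT libraries for 759 genes (5.09%) and below them for 557 (3.73%), and 285 of the 323 higher and 205 of the 226 lower genes were among these. In either direction this makes 549 genes called (3.68%) and 1316 whose groups do not overlap (8.82%). Most changes were small. The median log2 fold change was 0.52 for the higher and -0.41 for the lower genes, 61 and 23 genes changed by 2-fold or more, and 59.4% and 73.9% changed by less than 1.5-fold. The spread that these sizes stand against was a median within-group SD of 0.11 in cKO and 0.14 in WT libraries (log2 scale, genes with a mean of 1000 or more normalized counts, here called abundant).

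**Figure D1:**
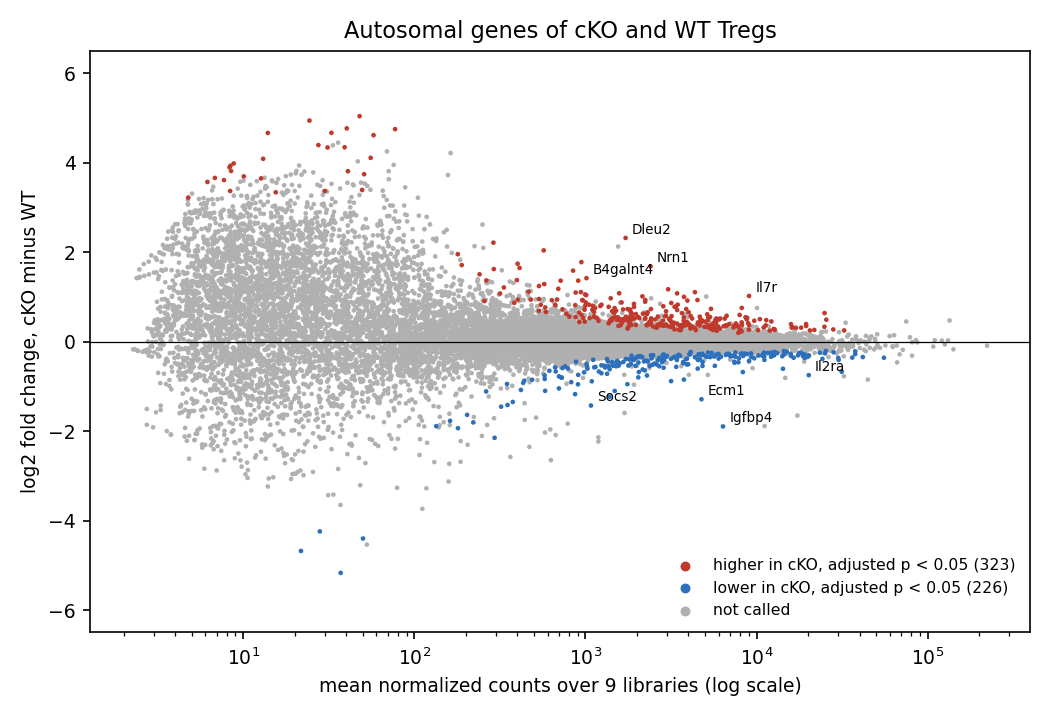
Log2 fold change (cKO minus WT, y axis) against the mean normalized counts of the 9 libraries (x axis, log scale) for each of the 14915 autosomal genes. The 323 higher genes are red and the 226 lower genes blue, and the cloud of uncalled genes widens below about 100 normalized counts and leans upward there, with a median of 0.57 for genes with a mean under 100 and of -0.007 for abundant genes.

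The calls were spread unevenly over abundance. Among the 588 genes with a mean of 10000 or more normalized counts, 24 were higher and 47 lower, whereas among the 5072 genes from 1000 to 10000 the higher genes prevailed, with 222 against 141. Genes with a mean under 100 had a median log2 fold change of 0.57, with 28 higher and 4 lower of 4892, and of these 4892 genes 2240 and 2730 had a read in WT replicates 2 and 4, against 3959 to 4488 in the other 7 libraries. Abundant genes, of which 4.35% were higher and 3.32% lower, had a median of -0.007. Family medians below are therefore given over abundant members, unless stated otherwise. Counts of called family members are to be read beside these shares and beside the 2.17% higher and 1.52% lower of all genes tested. The families and lists were chosen with earlier results of these data known, so a share within them is a description and not a test. Protein-coding genes made up 308 of the 323 higher and 222 of the 226 lower genes. Within 5 Mb of the floxed clusters, 0 of 27 genes tested were higher and 2 lower around miR-15b/16-2, and 3 of 77 were higher and 1 lower around miR-15a/16-1.

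The number of calls depended on single libraries. All 549 kept their direction with each library left out, but they were chosen for their change in these same libraries. Of these, 285 higher and 205 lower genes have groups that do not overlap, so leaving out 1 library cannot turn their direction. Leaving out cKO replicate 1 reduced the calls to 187 higher and 126 lower, without cKO replicate 3 they were 203 and 141, and without cKO replicate 5 210 genes were higher. Of the 549 calls, 169 higher and 108 lower genes passed in each of the 9 fits that left out 1 library. When sex was fitted as a term, which compares the cKO libraries with WT replicate 3 alone, only 11 higher and 8 lower genes passed. The medians of the 323 and 226 genes were then 0.52 and -0.42, all of them kept their direction, and the median standard error grew from 0.10 to 0.17 and from 0.09 to 0.15. Of the higher genes 318 and of the lower genes 224 had WT replicate 3 outside the range of all 5 cKO libraries on the side of the fold change, as did 5743 of all 14915 genes (38.5%), but WT replicate 3 was itself among the libraries on which the calls rest. The 8 lower genes that passed with the sex term were Igfbp4, Socs2, Ecm1, Whrn, Myb, Adpgk, Il2ra and Myc, and the 11 higher ones were Nrn1, H2-Ob, Spock2, Phlpp1, Serpinb9, Pfkl, Uhmk1, Slc4a7, Srpr, Abcb1a and Hip1r. Sex and other traits of WT replicate 3 cannot be told apart.

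Seed matches were counted next, since they are the feature that direct targets share. A 3′ UTR was annotated for 12034 of the genes tested, of which 3387 (28.1%) held a match to the seed, as TGCTGCT (bases 2 to 8), GCTGCTA (bases 2 to 7 followed by A) or the 8-base TGCTGCTA that joins both, searched on the transcribed strand of the longest 3′ UTR. A match was present in 163 of 306 higher genes (53.3%) and 54 of 223 lower genes (24.2%). The share of higher genes differed with the kind of match, and was lowest without a match and highest with the 8-base match. It was 1.65% among 8647 genes without a match, 2.7% among 407 with GCTGCTA only, 4.47% among 2440 with TGCTGCT and 7.96% among 540 with TGCTGCTA, and the share of lower genes was 1.95%, 1.23%, 1.48% and 2.41% in the same order. By number of matches, 3.92% of genes with 1, 5.76% with 2 and 8.44% with 3 or more were higher.

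Higher genes also had longer 3′ UTRs, with a median of 1763 bases against 1267 for lower genes and 1146 for all genes, and a longer UTR holds a match more often. The shares were therefore compared among genes of like 3′ UTR length. Genes with a match were more often higher in each of 5 length classes, at 5.56% against 1.45% under 500 bases and at 4.37% against 3.5% from 4000 bases. The contrast was thus smallest for the longest UTRs. Since calls also depended on abundance, the shares were taken among abundant genes too. Of 1827 abundant genes with a match 7.8% were higher and 2.5% lower, and of 3755 without a match 2.6% and 3.8%. Length and abundance were not matched together. Over all genes the median log2 fold change of genes with a match exceeded that of genes without by 0.05. Taken library by library, as the deviation from the WT mean, this difference was 0.0629, 0.0889, 0.0379, 0.0495 and 0.0214 in cKO replicates 1 to 5 and between -0.0157 and 0.0163 in the 4 WT libraries, so that the groups did not overlap, with cKO replicate 5 just above the highest WT library.

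**Figure D2:**
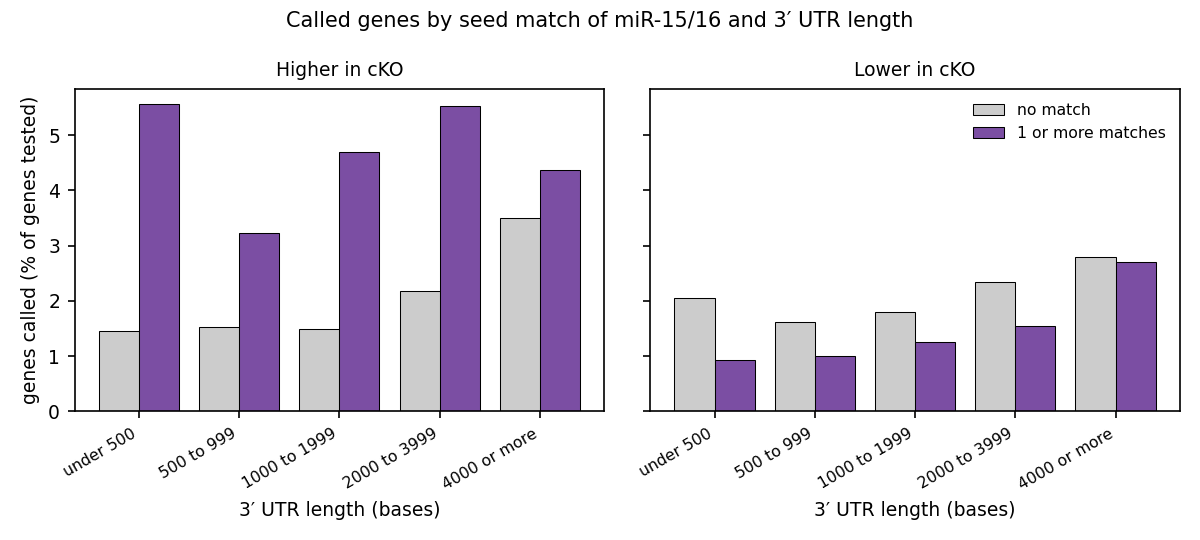
Percent of genes called higher (left) or lower (right) in cKO Tregs, by 3′ UTR length in bases, for genes without (grey) and with (purple) a seed match of miR-15/16. For higher genes the purple bar exceeds the grey bar in every length class, from 5.56% against 1.45% under 500 bases to 4.37% against 3.5% from 4000 bases.

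Of the genes with a match, 6 higher and 2 lower ones show what such sites look like. Each is given as the mRNA strand on GRCm38, 5′ to 3′, with the match in capitals:
Nrn1, chr13:36725932-36725958, minus strand: aggttgtcataagagaTGCTGCTAtgg
Il7r, chr15:9506930-9506956, minus strand: aagaccatgattttccTGCTGCTAtta
Slc4a7, chr14:14797881-14797907, plus strand: ttccaaagttcccattTGCTGCTAaat
Cdc25a, chr9:109892854-109892880, plus strand: cgctgcagaccagtatTGCTGCTActc
Prkar2a, chr9:108747317-108747343, plus strand: ccctcctttcctctctTGCTGCTAacg
Pfkl, chr10:77988069-77988094, minus strand: atgtgggggtctactgTGCTGCTctg
Myb, chr10:21125456-21125482, minus strand: ttttagcctgtagtcaTGCTGCTAgct
Dclk2, chr3:86791735-86791761, minus strand: cctcacctgtcatagcTGCTGCTAcct
Nrn1, Il7r, Slc4a7, Cdc25a, Prkar2a and Pfkl were higher in cKO Tregs, with the 8-base match in each but Pfkl, which held TGCTGCT, whereas Myb and Dclk2 carried the 8-base match and were lower. Prkar2a held 6 matches and Dclk2 4. A match is a stretch of letters, and whether the miRNAs bind there was not measured in these libraries.

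Among abundant genes that were called and whose groups did not overlap, the largest changes apart from Dleu2 were those of Nrn1 among the higher and Igfbp4 among the lower genes. Nrn1, which encodes the membrane-anchored protein neuritin, was at 3973, 3112, 3646, 2919.6 and 3623 normalized counts in cKO replicates 1 to 5 and at 1146, 784, 1157 and 1255 in WT replicates 1 to 4 (log2 1.68 ± 0.16, limma adjusted p = 1.62e-05). H2-Ob, a chain of the MHC class II-like molecule that restrains peptide loading, had 4441, 4207, 4077, 3887 and 3594 in the cKO and 1749, 1780.0, 1714 and 1933 in the WT libraries (log2 1.17 ± 0.09, limma adjusted p = 6.03e-07). Both genes were more than doubled, and the spread within each group was small beside the gap. Phlpp1, a phosphatase that removes an activating phosphate from AKT, stood out for its tight values, at 4469, 4494, 4541, 4367 and 4498 in cKO and 2305, 2401, 1955 and 1860.2 in WT libraries (log2 1.08 ± 0.08, limma adjusted p = 5.32e-07). Serpinb9, an inhibitor of granzyme B, was similarly even, with 1309, 1310.4, 1359, 1261 and 1291 in cKO and 686, 742, 559 and 571 in WT libraries (log2 1.04 ± 0.14, limma adjusted p = 0.00038). In neither gene did a cKO library come near the highest WT library. Spock2, which encodes an extracellular proteoglycan, was at 5528, 5249, 6251, 5251 and 6088 normalized counts in cKO libraries and ranged more widely in WT libraries, at 2933, 3816, 2139.9 and 2003 (log2 1.10 ± 0.15, limma adjusted p = 0.000486). B4galnt4, a glycosyltransferase, had 1399 ± 229 in cKO and 532 ± 133 in WT Tregs (log2 1.42 ± 0.18, limma adjusted p = 0.000351). Neither Phlpp1, H2-Ob, Spock2 nor B4galnt4 held a seed match in its longest 3′ UTR, and Serpinb9 held 1 match of the GCTGCTA kind.

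Among the lower genes, Igfbp4, a secreted protein that binds insulin-like growth factors, had the largest fall of these. It stood at 2649.8, 3130.4, 2342, 4309 and 2199.9 normalized counts in cKO replicates 1 to 5 and at 10372, 8928, 10522 and 12817 in WT replicates 1 to 4 (log2 -1.90 ± 0.15, limma adjusted p = 1.58e-06). Every WT library held at least 2 times the count of the highest cKO library. Adpgk, the ADP-dependent glucokinase, was at 2403, 2587, 2158, 2266 and 2091 in cKO and 4047, 3823, 4494 and 4625 in WT libraries (log2 -0.88 ± 0.09, limma adjusted p = 2.12e-05). Ecm1, an extracellular matrix protein, had 2913 ± 379.7 in cKO and 7078 ± 351 in WT Tregs (log2 -1.29 ± 0.09, limma adjusted p = 2.75e-07). Socs2, a feedback inhibitor of cytokine receptors, had 611 ± 53.2 and 1658 ± 269 (log2 -1.43 ± 0.12, limma adjusted p = 2.41e-06). These genes showed no overlap and no library that stood far from its group. Rnf43, a ubiquitin ligase that removes Wnt receptors from the membrane, was at 1756, 1298, 1469.7, 1577 and 1551 in cKO and 2726, 3109, 2437 and 2396 in WT libraries (log2 -0.80 ± 0.11, limma adjusted p = 0.000473). Klf7, a Krüppel-like factor, had 1748 ± 148 in cKO and 2964 ± 348 in WT Tregs (log2 -0.76 ± 0.11, limma adjusted p = 0.000707). Dclk2, a doublecortin-like kinase, was even in cKO libraries and uneven in WT libraries, where it stood at 2643, 1811, 1313 and 2792 normalized counts (log2 -1.10 ± 0.17, limma adjusted p = 0.00126). WT replicate 3 had the lowest of these WT values, and with the sex term, which leaves that library as the only control, the log2 fold change of Dclk2 was -0.46.

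**Figure D3:**
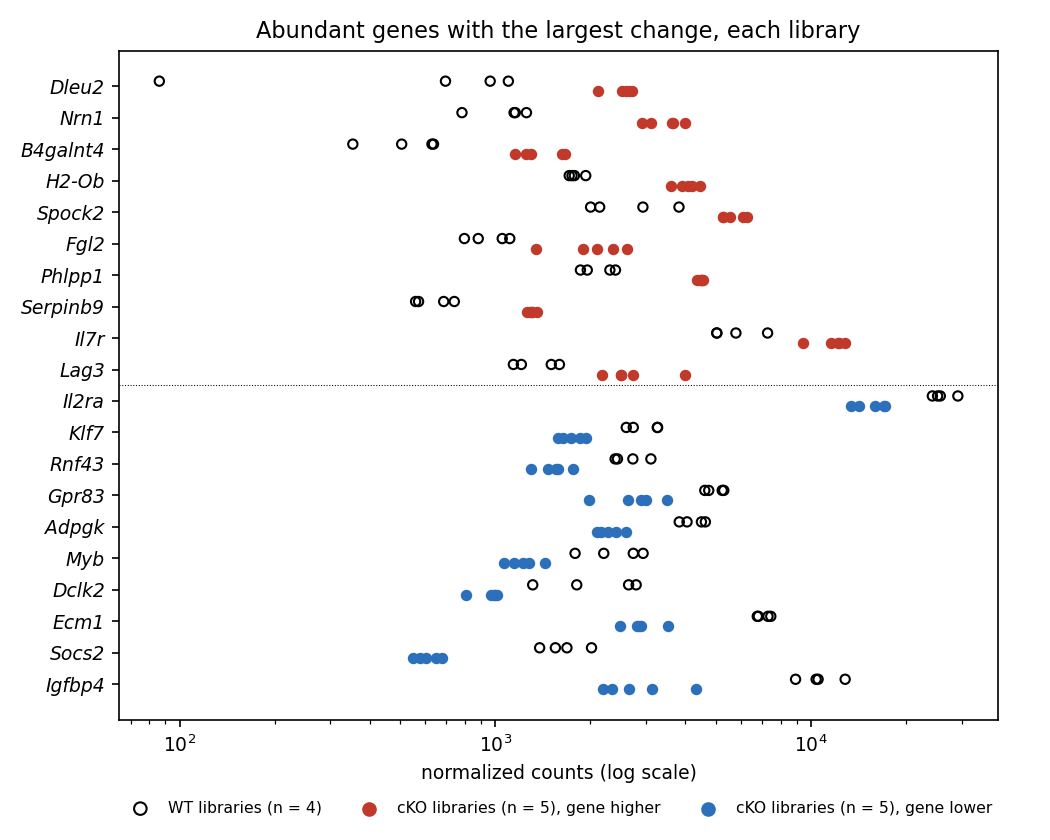
Normalized counts (x axis, log scale) of the 10 abundant genes with the largest rise and the 10 with the largest fall whose groups do not overlap, with 1 point for each library: open circles are the 4 WT libraries, filled circles the 5 cKO libraries. The cKO points lie right of all WT points in the upper 10 genes and left of them in the lower 10, and the isolated WT point of Dleu2 at 86.3 is WT replicate 2.

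The family with the most lower genes was the cytosolic ribosomal proteins, the protein parts of the ribosome. Of 79 members tested 18 were lower (22.8%, with 1.52% of all genes lower) and 0 higher, where limma gave 33 lower and 1 higher at an unadjusted p under 0.05, edgeR 16 and 0 and DESeq2 22 and 1. Of all abundant genes 3.32% were lower, and of those with a mean of 10000 or more normalized counts 7.99%. Among the 48 abundant members 43 had a negative log2 fold change, and their median was -0.28. In the single libraries, the median deviation of these 48 genes from the WT mean was -0.31, -0.36, -0.33, -0.14 and -0.21 in cKO replicates 1 to 5 and -0.02, 0.01, 0.06 and -0.04 in WT replicates 1 to 4. The groups did not overlap, and cKO replicates 4 and 5, which had the immediate early level of WT replicates 1 to 3, lay nearest to the WT libraries. Rpl4 was among the most abundant members, at 46185, 49303, 46030.3, 53019 and 52063 normalized counts in cKO and 60944, 64872, 65429 and 61753 in WT libraries (log2 -0.36 ± 0.06, limma adjusted p = 0.00224). Rpl7 had 7825 ± 604 in cKO and 10534 ± 530.3 in WT Tregs (log2 -0.43 ± 0.06, limma adjusted p = 0.00104), and Rps15 had 16904 ± 1041 and 21746 ± 872 (log2 -0.36 ± 0.06, limma adjusted p = 0.00109). The groups were separate in each of these 3 genes, with a narrow range within each group. Without any 1 library 10 of the 18 genes remained called, without WT replicates 2 and 4 the number of lower members was 7, and with the sex term 0. With only libraries of like immediate early level (WT replicates 1 to 3, cKO replicates 4 and 5) 1 member was lower, where 30 of all genes were. Ribosomal protein genes have many near-identical processed copies in the mouse genome. How reads from these were counted is not given in the sources used here, so single members are uncertain.

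Factors that build or use ribosomes followed in part. Of 37 ribosome biogenesis factors 3 were lower and 0 higher (10 lower and 1 higher at an unadjusted p under 0.05, edgeR 3 and 0, DESeq2 4 and 0), 27 of 30 abundant ones had a negative log2 fold change, and their median was -0.15. The library medians of this family were between -0.13 and -0.20 in cKO libraries and between -0.01 and 0.005 in WT libraries, without overlap. Nop56, a core protein of the particles that methylate ribosomal RNA, was at 3474, 3117, 3266, 3725 and 3719.9 in cKO and 4639.9, 4736, 4397 and 4222 in WT libraries (log2 -0.38 ± 0.08, limma adjusted p = 0.0117). Npm1 and Fbl, 2 further nucleolar proteins, were also lower, at log2 fold changes of -0.30 and -0.45, but these calls were not stable. Npm1 was no longer called without WT replicate 1, 2 or 3 or cKO replicate 1, 2 or 3, each omitted singly (adjusted p then reached 0.0853). Fbl was no longer called without WT replicate 2, 3 or 4 or cKO replicate 1, 2, 3, 4 or 5, each omitted singly (adjusted p then reached 0.117). Myc, a transcription factor known to drive ribosome genes, was lower too (log2 -0.54 ± 0.08, limma adjusted p = 0.00082). Of 52 translation initiation factors 1 was higher and 2 lower. The higher one was Eif4g1, the scaffold of the cap-binding complex, which rose from 16925 ± 943 in WT to 21562 ± 694 in cKO Tregs (log2 0.35 ± 0.05, limma adjusted p = 0.00104) and whose 3′ UTR held 1 match. Of 75 mitochondrial ribosomal proteins 0 were called (3 lower and 2 higher at an unadjusted p under 0.05, 0 by edgeR and by DESeq2), and their 18 abundant members had a median of -0.07. Of 46 proteasome subunits 1 was lower, and of 94 respiratory chain and ATP synthase subunits 2 were higher, with medians of -0.09 in both families.

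Cytokine receptors and their inhibitors were split between rises and falls. The γ-chain receptors held both, with Il7r, the α chain of the IL-7 receptor (CD127), at 12768, 11599, 12228, 12162 and 9447 normalized counts in cKO and 5024, 5031, 7281 and 5779 in WT libraries (log2 1.02 ± 0.11, limma adjusted p = 4.58e-05), and Il2ra, the α chain of the IL-2 receptor (CD25), at 15939, 16953, 14167, 17141 and 13359 in cKO and 25645, 24206, 25146 and 29151 in WT libraries (log2 -0.75 ± 0.08, limma adjusted p = 1.99e-05). The groups did not overlap for either gene, and the differences went in opposite directions. The nearest libraries for Il7r were WT replicate 3 at 7281 and cKO replicate 5 at 9447. With the sex term, which leaves WT replicate 3 as the only control, the log2 fold changes were 0.67 for Il7r and -0.70 for Il2ra. The other 5 members tested of this family were not called, among them Il2rb, the β chain that the IL-2 and IL-15 receptors share, at 44492 ± 2679 in cKO and 44687 ± 1036 in WT Tregs. Il10ra, the IL-10 receptor chain, rose from 3919.5 ± 479 to 5451 ± 589 (log2 0.48 ± 0.09, limma adjusted p = 0.00622), and Ifngr1, a chain of the interferon-γ receptor, rose from 6917 ± 1309.9 to 9988 ± 1232 (log2 0.54 ± 0.11, limma adjusted p = 0.0107). Il1rl1, the IL-33 receptor ST2, stood at 2893, 1983, 2763, 2003 and 2322 in cKO and 1571, 1462, 1172 and 1117 in WT libraries (log2 0.84 ± 0.13, limma adjusted p = 0.00162). Il6ra was lower with all 9 libraries (log2 -0.32 ± 0.09, limma adjusted p = 0.0496). Il6ra was no longer called without WT replicate 1, 2, 3 or 4 or cKO replicate 1, 3, 4 or 5, each omitted singly (adjusted p then reached 0.128).

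Downstream of these receptors, 2 of 8 SOCS genes were lower and 0 higher (4 and 1 at an unadjusted p under 0.05, edgeR 2 and 0, DESeq2 2 and 1), which are Socs2 and Socs1. Socs1 had 1817 ± 86.3 in cKO and 2292 ± 186 in WT Tregs (log2 -0.33 ± 0.08, limma adjusted p = 0.0182). Socs1 was no longer called without WT replicate 4 or cKO replicate 1, each omitted singly (adjusted p then reached 0.0577). The median over 7 abundant SOCS genes was -0.21, and their library medians did not overlap, at -0.12 to -0.27 in cKO and -0.05 to 0.03 in WT libraries. Stat5b, the transcription factor that IL-2 and IL-7 receptors activate, was the 1 gene of 11 JAK and STAT genes that was higher, at 13650.1, 14086, 13805, 13648 and 13384 in cKO and 11856, 11952, 10839 and 10853 in WT libraries (log2 0.27 ± 0.05, limma adjusted p = 0.00622). Of 24 TGF-β family receptors and SMADs 1, Tgfbr1, was lower (log2 -0.33 ± 0.08, limma adjusted p = 0.0294). Tgfbr1 was no longer called without WT replicate 2 or 3 or cKO replicate 2, 3 or 4, each omitted singly (adjusted p then reached 0.0935). This family had a median of -0.14 over 16 abundant members, 13 of which were negative.

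Suppressive mediators, the molecules through which Tregs restrain other cells, rose more often than they fell. Of 17 members tested 4 were higher (23.5%, with 2.17% of all genes and 4.35% of abundant genes higher) and 0 lower (7 and 1 at an unadjusted p under 0.05, edgeR 4 and 0, DESeq2 5 and 0), and the median over 11 abundant members was 0.42. Fgl2, a secreted fibrinogen-like protein, was at 2356, 1349.5, 1899.9, 2104 and 2611 normalized counts in cKO and 1111, 1052, 798 and 883 in WT libraries (log2 1.08 ± 0.16, limma adjusted p = 0.00082). Lag3, a receptor for MHC class II, had 2497, 2182, 3988, 2508 and 2738 in cKO and 1209, 1504, 1596 and 1141 in WT libraries (log2 1.01 ± 0.17, limma adjusted p = 0.00305). Tigit, a receptor for CD155, was at 4391, 3303, 5897, 4897 and 5737 and 3022, 2749.7, 2160.2 and 1763 (log2 1.0 ± 0.17, limma adjusted p = 0.00232). All 3 were about doubled and showed no overlap, although the cKO libraries ranged widely. The fourth, Penk, the precursor of enkephalins, was higher with all libraries (log2 0.92 ± 0.23, limma adjusted p = 0.035), with an adjusted p of up to 0.104 when 1 library was left out and with overlapping groups. Ctla4, a coinhibitory receptor, was not called. It stood at 40076, 30656, 31825, 38976 and 40696 in cKO libraries and at 36409.8, 33442, 32969 and 13256 in WT libraries, and its log2 fold change of 0.42 (adjusted p = 0.343 from limma) went with the low WT replicate 4. In the library medians of this family, cKO replicate 2 lay with the WT libraries at 0.06, and the other cKO libraries lay at 0.45 to 0.69. The list of this family, too, was written with earlier results known, so its share of higher genes is a description.

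Coinhibitory and costimulatory receptors held called genes in the higher direction only. Of 16 coinhibitory receptors 3 were higher, Lag3, Tigit and Btla, and 0 lower (6 and 1 at an unadjusted p under 0.05, edgeR and DESeq2 3 and 0), with a median of 0.37 over 11 abundant members. Of 20 costimulatory and TNF superfamily receptors Icos, Cd28 and Tnfrsf26 were higher and 0 were lower (0 at an unadjusted p under 0.05, and 0 by edgeR and by DESeq2). Tnfrsf26 was at 2123, 2368, 2018, 2586 and 1949.9 in cKO and 1173, 1399, 1351 and 1447 in WT libraries (log2 0.71 ± 0.15, limma adjusted p = 0.0126). Icos, the costimulator of effector Tregs, was at 10605, 7896, 10694, 9968 and 11853 in cKO and 8333, 7311, 7082 and 5578 in WT libraries (log2 0.53 ± 0.13, limma adjusted p = 0.0343). Its groups overlapped, as WT replicate 1 was above cKO replicate 2. Icos was no longer called without WT replicate 2, 3 or 4 or cKO replicate 1, 3, 4 or 5, each omitted singly (adjusted p then reached 0.0924). Cd28 was no longer called without WT replicate 1 or 4 or cKO replicate 1, 4 or 5, each omitted singly (adjusted p then reached 0.0791). Btla was no longer called without WT replicate 1, 2 or 3 or cKO replicate 1, 2 or 3, each omitted singly (adjusted p then reached 0.096). The median over the 14 abundant receptors of this costimulatory family was -0.05. Slamf6, which recruits SAP, was the 1 gene called among 9 SLAM family members, at 12056, 13699, 12720.3, 13027 and 12764 in cKO and 11111, 10795, 10622 and 10796 in WT libraries (log2 0.25 ± 0.05, limma adjusted p = 0.0117).

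Integrins, the chains that bind matrix and activate latent TGF-β, gave 3 higher and 0 lower genes of 22 tested (7 and 5 at an unadjusted p under 0.05, edgeR 3 and 0, DESeq2 4 and 3). Itgb8, whose dimer with the αv chain releases TGF-β, was at 2220.3, 1915, 2782, 2015 and 2856 normalized counts in cKO and 1451, 1385, 1611 and 1054 in WT libraries (log2 0.77 ± 0.15, limma adjusted p = 0.00546). Itga7, a laminin receptor chain, had 981 ± 87.5 in cKO and 384 ± 67.4 in WT Tregs (log2 1.36 ± 0.25, limma adjusted p = 0.00473). Itgb1, its β chain, had 29233 ± 3036 and 20986 ± 3712 (log2 0.49 ± 0.10, limma adjusted p = 0.0103). The groups were separate for Itgb8 and Itga7, and for Itgb1 the highest WT library exceeded the lowest cKO library. The 10 abundant integrin chains had a median of 0.07, and 4 of them had a negative log2 fold change. Among 15 chemokine receptors 1 was called, Ccr9 (log2 0.82 ± 0.22, limma adjusted p = 0.0483), and it was no longer called without WT replicate 1, 2 or 4 or cKO replicate 1, 2, 4 or 5, each omitted singly (adjusted p then reached 0.124). The groups overlapped for Ccr9.

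The genes that define Tregs did not move as 1 group. Of 23 Treg signature genes tested 4 were higher (Tigit, Icos, Nrp1 and Ikzf2) and 5 lower (Il2ra, Socs2, Ecm1, Gpr83 and Capg), and the median was -0.02. The lower ones were the more stable, since Il2ra, Socs2, Ecm1 and Gpr83 passed without any 1 library, as did Tigit alone among the higher ones. Gpr83, a G protein-coupled receptor enriched in Tregs, was at 2885, 3007, 1987, 3485 and 2626 normalized counts in cKO and 4606, 4741, 5290.2 and 5229 in WT libraries (log2 -0.85 ± 0.11, limma adjusted p = 0.000433). Ikzf2, which encodes HELIOS, had 34971 ± 1943 in cKO and 29415 ± 1857 in WT Tregs (log2 0.25 ± 0.06, limma adjusted p = 0.0217). Ikzf2 was no longer called without WT replicate 1, 3 or 4 or cKO replicate 1, 3 or 5, each omitted singly (adjusted p then reached 0.0625). Nrp1 was no longer called without WT replicate 3 or 4 or cKO replicate 3 or 5, each omitted singly (adjusted p then reached 0.0806). Capg, an actin-capping protein, had a log2 fold change of -0.46 and an adjusted p of up to 0.0812 when 1 library was left out.

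Genes of the resting T cell state, which depend on TCF1, LEF1 and KLF2, gave 5 lower genes (31.2%, with 1.52% of all genes and 3.32% of abundant genes lower) and 1 higher of 16 tested, with a median of -0.19 over 15 abundant members. The higher one was Il7r, and the lower ones were Igfbp4, Lta, Klf2, Bach2 and Foxp1. The list was written with earlier results of these data known, so its share of lower genes is a description and not a test. Lta, which encodes lymphotoxin α, was at 1742, 1483, 1743, 1561 and 1514 in cKO and 2995, 2256, 2141 and 3024 in WT libraries (log2 -0.68 ± 0.12, limma adjusted p = 0.00272). Foxp1 and Bach2, transcription factors that keep lymphocytes quiescent, had log2 fold changes of -0.30 and -0.40, with adjusted p of up to 0.0552 and 0.102 when 1 library was left out. The groups overlapped for Bach2. Klf2, which drives the receptors for lymph node homing, was at 20058, 24718, 20252, 29729.8 and 28265 in cKO and 43355, 44929, 47217 and 24546 in WT libraries (log2 -0.67 ± 0.17, limma adjusted p = 0.0279), and WT replicate 4, the library with the lowest immediate early level, lay among the cKO libraries. Klf2 was no longer called without WT replicate 1, 2 or 3 or cKO replicate 1, 2 or 3, each omitted singly (adjusted p then reached 0.0927). The factors that name this state, apart from Klf2, were not called. Tcf7, which encodes TCF1, stood at 39629.7 ± 3548 in cKO and 36433 ± 592 in WT Tregs (log2 fold change 0.12, adjusted p = 0.4 from limma). Lef1 was at log2 -0.18 (limma adjusted p = 0.361). Myb, a further factor of resting and progenitor-like T cells, was at 1068, 1441, 1149, 1279 and 1225 in cKO and 2204, 1789, 2735 and 2937 in WT libraries (log2 -0.95 ± 0.13, limma adjusted p = 0.000433). Among 21 transcription factors of effector lineages Bcl6 and Gata3 were higher and 0 lower (5 and 3 at an unadjusted p under 0.05, edgeR 2 and 0, DESeq2 3 and 1). Bcl6, the factor of follicular cells, had 2129 ± 142 in cKO and 1458 ± 101 in WT Tregs (log2 0.55 ± 0.09, limma adjusted p = 0.00291), and Gata3 had a log2 fold change of 0.45, with overlapping groups and with an adjusted p of 0.0527 without cKO replicate 5.

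**Figure D4:**
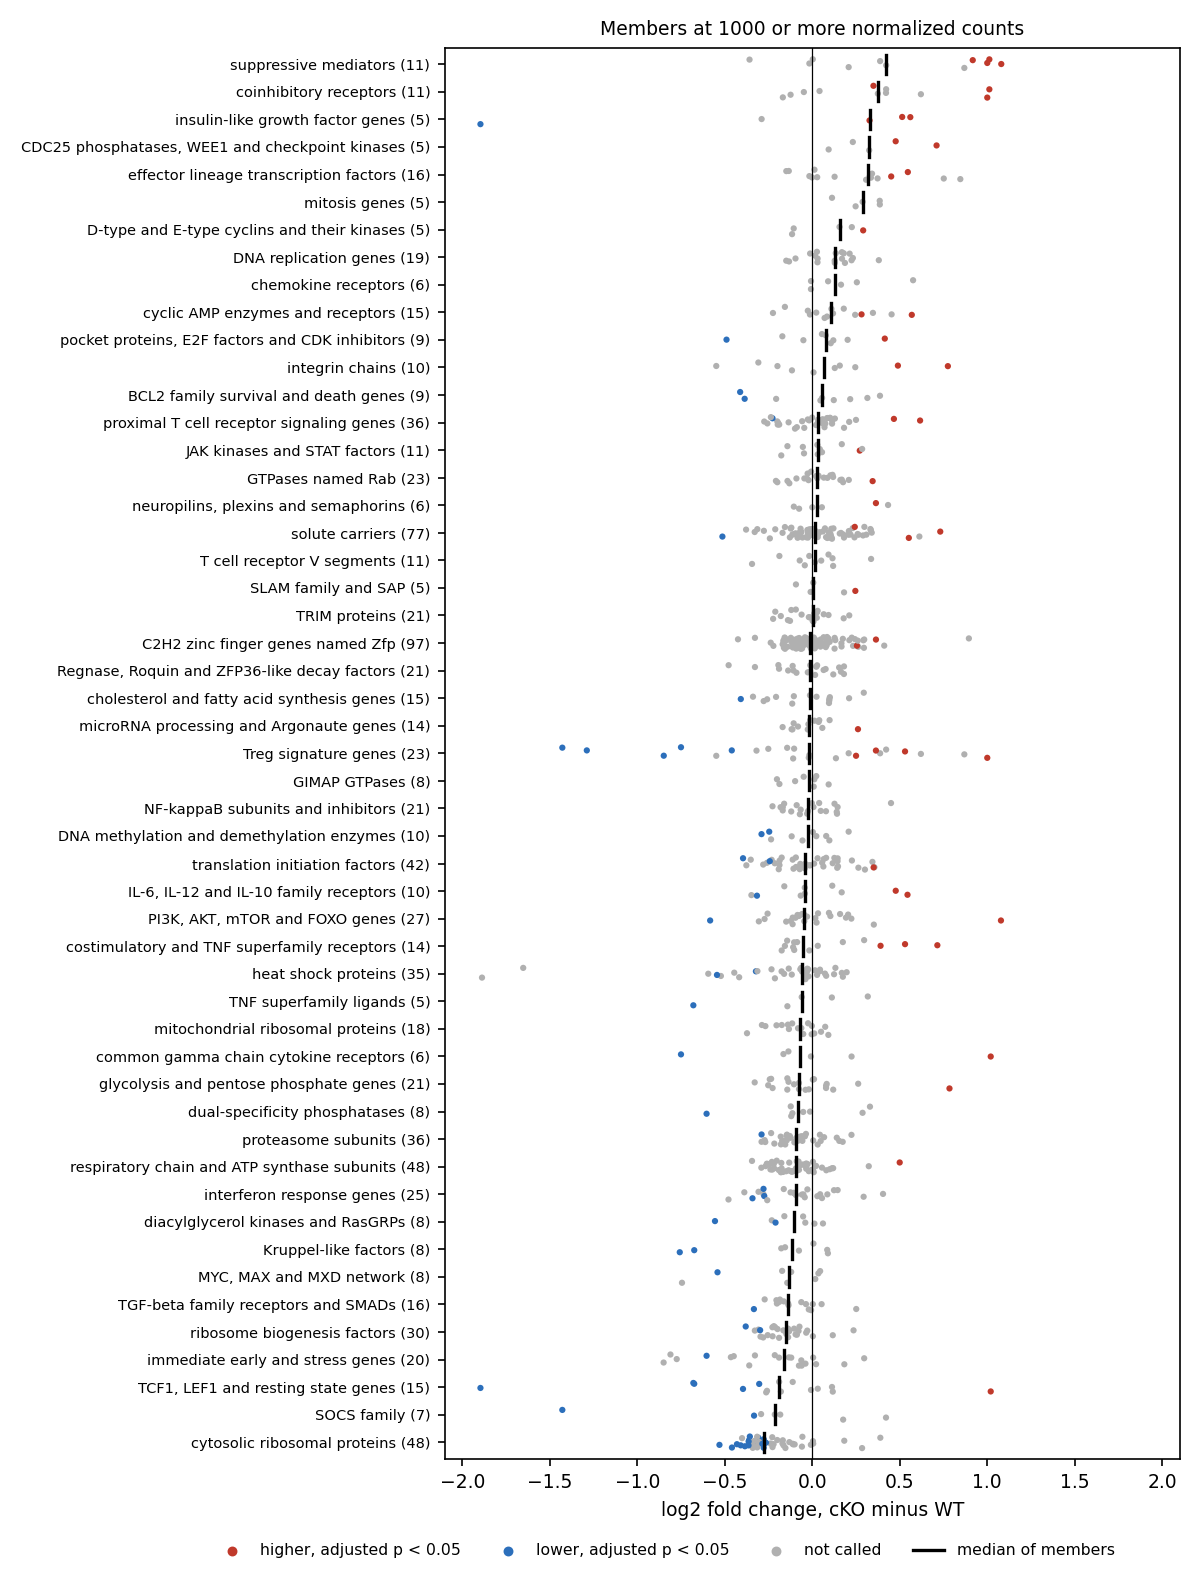
Log2 fold change (cKO minus WT, x axis) of each member with a mean of 1000 or more normalized counts in the families with at least 5 such members (number in brackets), ordered by family median (black bar). Red and blue points passed limma at an adjusted p under 0.05, higher and lower. Suppressive mediators (median 0.42) stand at the top and cytosolic ribosomal proteins (median -0.28) at the bottom, and in most families nearly all points are grey and near 0.

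Cell cycle genes were examined because they include the targets most often described for this miRNA family. Of 11 such cell cycle and survival targets, 2 were higher and 1 lower. Cdc25a, a phosphatase that activates cyclin-dependent kinases, was at 1283, 1208, 1309, 1325 and 1482 normalized counts in cKO and 769, 665, 785 and 1050.3 in WT libraries (log2 0.71 ± 0.13, limma adjusted p = 0.0043). Ccnd3, a D-type cyclin, was higher with overlapping groups (log2 0.29 ± 0.07, limma adjusted p = 0.0347). Ccnd3 was no longer called without WT replicate 1, 2 or 4 or cKO replicate 1, 2, 3 or 4, each omitted singly (adjusted p then reached 0.109). Mcl1, a survival protein of the BCL2 family, was lower, also with overlapping groups, at 21275 ± 1538 in cKO and 27982 ± 3997 in WT Tregs (log2 -0.39 ± 0.08, limma adjusted p = 0.0132). The remaining 8 were not called. Ccnd2 had 27114 ± 1880.0 in cKO and 23271 ± 2905 in WT Tregs (log2 fold change 0.23, adjusted p = 0.12 from limma), Cdk6 a log2 fold change of -0.11, Bcl2 one of -0.21 and Bmi1 one of -0.03, while Ccne1, Wee1 and Chek1, at mean levels under 1000 normalized counts, were at log2 0.80 ± 0.38, 0.54 ± 0.23 and 1.98 ± 0.88. Ccnd1 did not exceed 56.0 normalized counts in any library.

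The phosphatases and kinases that control entry into mitosis gave 2 higher genes of 9, Cdc25a and Cdc25b, and 0 lower (6 and 0 at an unadjusted p under 0.05, edgeR 2 and 0, DESeq2 3 and 0). Cdc25b was at 5645, 5297, 5279, 5670.1 and 5419 in cKO and 3790.2, 4201, 3752 and 3968 in WT libraries (log2 0.48 ± 0.10, limma adjusted p = 0.0127). Rbl2, the pocket protein p130, was at 9543, 10033, 9948, 10078 and 10397 in cKO and 8241, 8549.5, 7776 and 5779.9 in WT libraries (log2 0.41 ± 0.09, limma adjusted p = 0.0126), whereas E2f2, a factor that pocket proteins hold, fell from 3003 ± 314 to 2149 ± 332 (log2 -0.49 ± 0.10, limma adjusted p = 0.0113). In 2 further lists of genes whose mRNA rises in dividing cells, DNA replication and mitosis genes, none was called, although most had a positive log2 fold change. These were 28 of 38 (73.7%) and 23 of 36 (63.9%), with 56.7% of all genes positive. Of the abundant members 15 of 19 and 5 of 5 were positive, with 48.1% of all abundant genes. Of 38 DNA replication genes 0 passed limma (4 higher and 0 lower at an unadjusted p under 0.05, edgeR 0, DESeq2 1 higher), and of 36 mitosis genes 0 passed (6 higher and 0 lower at an unadjusted p under 0.05, 0 by edgeR and by DESeq2). The median of the 5 abundant mitosis genes was 0.60 and 0.72 in cKO replicates 4 and 5 and at most 0.19 in the other 7 libraries. In the BCL2 family Bak1, which permeabilizes mitochondria, was lower beside Mcl1, at 2373, 2147, 2505, 2759.5 and 2769 in cKO and 2943, 3821, 3297 and 3305 in WT libraries (log2 -0.41 ± 0.09, limma adjusted p = 0.012).

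The insulin-like growth factor genes, which include receptors and the binding protein Igfbp4, formed a small group in which 3 of 5 abundant members rose. Of 8 tested, Insr, Igf1r and Igf2r were higher and Igfbp4 lower. Insr, the insulin receptor, was at 3159.7, 3378, 3304, 2834 and 2785 normalized counts in cKO and 1917, 2124, 2238 and 2096 in WT libraries (log2 0.56 ± 0.10, limma adjusted p = 0.00503). Igf1r, the receptor for IGF-1, was at 8161, 8218, 8561, 6105 and 6566 and 4467, 5785, 5635 and 5106 (log2 0.51 ± 0.10, limma adjusted p = 0.00812). Igf2r, which clears IGF-2 and sorts lysosomal enzymes, had 17731 ± 1407 in cKO and 14112 ± 713 in WT Tregs (log2 0.33 ± 0.07, limma adjusted p = 0.0103). The groups were separate in all 3 receptors. A seed match was held by 7 of the 8 genes of this family, among them Igfbp4, which fell, and by 28.1% of all genes. The 3′ UTR had 7267 bases in Igf1r, 4747 in Insr and 1304 in Igf2r. Matches are common in long 3′ UTRs, and from 4000 bases 664 genes held a match and 286 did not. Insr held 4 matches and Igf1r 2. In the pathway below these receptors, 1 of 31 PI3K, AKT, mTOR and FOXO genes was higher (Phlpp1) and 2 lower. Pik3r3, a regulatory subunit of PI3K, was low throughout and lower in cKO libraries, at 48.2, 43.7, 73, 100 and 45 against 239.5, 274, 158 and 227 normalized counts (log2 -1.89 ± 0.40, limma adjusted p = 0.0117). Ddit4, an inhibitor of mTORC1, had a log2 fold change of -0.58 with overlapping groups, and it was no longer called without WT replicate 1, 2 or 3 or cKO replicate 2, 3 or 5, each omitted singly (adjusted p then reached 0.115).

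Among metabolic genes single enzymes and transporters changed, with pathway medians near 0. Of 29 glycolysis and pentose phosphate genes 1 was higher and 1 lower. Pfkl, the liver-type phosphofructokinase, was at 4587, 4167, 4174, 3847 and 3978 normalized counts in cKO and 2309, 2422, 2151 and 2786 in WT libraries (log2 0.78 ± 0.09, limma adjusted p = 4.79e-05). Eno3, an enolase of low level in these cells, had 543 ± 79.1 in cKO and 958 ± 194 in WT Tregs (log2 -0.81 ± 0.16, limma adjusted p = 0.007). The family median was -0.08. Of 191 solute carriers 5 were higher (2.62%) and 2 lower (1.05%), shares close to those of all genes. Slc4a7, a sodium bicarbonate cotransporter, was the clearest, at 6417, 6663, 6647, 6493 and 6618 in cKO and 4391, 4283, 3742 and 3478 in WT libraries (log2 0.73 ± 0.07, limma adjusted p = 1.99e-05). Its cKO libraries were nearly equal, and the WT libraries all lay below them. Slc39a4, a zinc importer, rose from 578 ± 158 to 1230.2 ± 215 (log2 1.11 ± 0.18, limma adjusted p = 0.00162), and Slc43a1, a transporter of large neutral amino acids, from 279 ± 42.3 to 615 ± 155 (log2 1.12 ± 0.24, limma adjusted p = 0.0119). Slc22a5, the carnitine carrier, was lower, at a log2 fold change of -0.74 (adjusted p = 0.0157 from limma). Of 31 cholesterol and fatty acid synthesis genes 1, Sc5d, was lower, at a log2 fold change of -0.41, and it was no longer called without WT replicate 2 or cKO replicate 1 or 3, each omitted singly (adjusted p then reached 0.0656).

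The T cell receptor and cyclic AMP carry opposing signals in Treg activation, and single genes of both pathways changed. Of 36 proximal TCR signaling genes, all of them abundant, 2 were higher (5.56%) and 1 lower (2.78%), with a median of 0.03. These shares are near the 4.35% and 3.32% of all abundant genes. Both higher ones dampen the signal. Ptpn22, a phosphatase of LCK and ZAP-70, was at 10977, 10578, 11804, 10864 and 11017 in cKO and 7838, 7310.0, 8303 and 8572 in WT libraries (log2 0.47 ± 0.06, limma adjusted p = 0.000416), and Sla2, an adaptor that promotes receptor turnover, had 2245, 2233, 2407, 2333 and 2436 and 1646, 1481, 1486 and 1472 (log2 0.62 ± 0.08, limma adjusted p = 0.000185). The lower one was Lat, the central adaptor, at a log2 fold change of -0.23, and it was no longer called without WT replicate 2 or 4 or cKO replicate 1, 2, 3, 4 or 5, each omitted singly (adjusted p then reached 0.111). Of 23 cyclic AMP genes 4 were higher (17.4%, with 2.17% of all genes higher) and 0 lower (8 and 1 at an unadjusted p under 0.05, edgeR and DESeq2 4 and 0). Adora2a, the adenosine receptor that raises cyclic AMP, was at 3796, 3038, 4058, 3807 and 3942 in cKO and 2519, 2600.1, 2688 and 2223 in WT libraries (log2 0.57 ± 0.10, limma adjusted p = 0.00345). Prkar2a, a regulatory subunit of protein kinase A, was at 1296, 1159, 987, 1362 and 1223 and 809, 416, 692 and 677 (log2 0.93 ± 0.17, limma adjusted p = 0.00538). Adcy7, an adenylate cyclase, and Pde3b, a phosphodiesterase, were the other two. Adcy7 had overlapping groups and was no longer called without WT replicate 1, 2 or 3 or cKO replicate 1, 2, 3 or 4, each omitted singly (adjusted p then reached 0.105). Pde3b had a log2 fold change of 0.81 and an adjusted p of up to 0.121 when 1 library was left out. These 4 genes make, sense and degrade cyclic AMP, and the median of the family's 15 abundant members was 0.11, with library medians of 0.05 to 0.15 in cKO and -0.08 to 0.03 in WT libraries.

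In the family of DNA methylation enzymes Dnmt3a, a de novo methyltransferase, was lower, at 5559, 5252, 5111, 5210.0 and 5269 normalized counts in cKO and 6146, 6629.7, 6776 and 6289.6 in WT libraries (log2 -0.29 ± 0.06, limma adjusted p = 0.00717), as was Tet3, an enzyme that oxidizes methylcytosine, at a log2 fold change of -0.25. Tet3 was no longer called without WT replicate 3 or 4 or cKO replicate 1, 3 or 5, each omitted singly (adjusted p then reached 0.0986). Of 36 interferon response genes 4 were lower (Oas2, Zbp1, Gbp2 and Gbp7) and 1 higher (Oas1a), and none of these 5 calls held in all 9 fits that left out 1 library. Oas2 was even in cKO libraries, at 412, 358, 358, 365 and 353 normalized counts, and uneven in WT libraries, at 684, 457, 1102 and 1139.7 (log2 -1.10 ± 0.24, limma adjusted p = 0.0126). Oas2 was no longer called without WT replicate 3 (adjusted p then 0.0526). The library medians of this family overlapped. Members of the Oas and Gbp families resemble one another in sequence, which adds uncertainty to these values.

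In several families WT replicate 4 lay with cKO replicates 1 to 3 or below them, and the groups overlapped. Among these were heat shock proteins, with library medians of -0.24 in WT replicate 4 and -0.10 to -0.14 in cKO replicates 1 to 3. For chemokine receptors (-0.66), effector lineage transcription factors (-0.40) and NF-κB subunits and inhibitors (-0.18) WT replicate 4 was the lowest of the 9 libraries. A further 3 families are given in more detail. The first is the immediate early and stress genes, whose mean is the level given above. The 20 abundant immediate early and stress genes had library medians of 0.40, 0.25, 0.26 and -0.86 over the 4 WT libraries and of -0.43, -0.48, -0.36, 0.09 and 0.24 over the 5 cKO libraries. Dual-specificity phosphatases, which end MAP kinase signals, lay at -0.85 in WT replicate 4, at -0.19 to -0.38 in cKO replicates 1 to 3 and at 0.25 to 0.39 in the other 5 libraries. Krüppel-like factors lay at -0.41 in WT replicate 4, at -0.38 to -0.42 in cKO replicates 1 to 3, at -0.10 in cKO replicate 5 and at 0.11 to 0.18 in the other 4 libraries. By the test, 1 of 22 immediate early and stress genes and 1 of 18 dual-specificity phosphatases were called. Both calls are the same gene, Dusp2, which is in both lists and whose groups overlapped (log2 -0.60 ± 0.16, limma adjusted p = 0.0478). Dusp2 was no longer called without WT replicate 1, 2 or 3 or cKO replicate 1, 2 or 3, each omitted singly (adjusted p then reached 0.124). For ribosomal proteins and ribosome biogenesis factors WT replicate 4 was the lowest WT library, at -0.04 and -0.01, and lay above all 5 cKO libraries. This is 1 library, and the part of the immediate early level in the values of these 2 families was not tested.

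**Figure D5:**
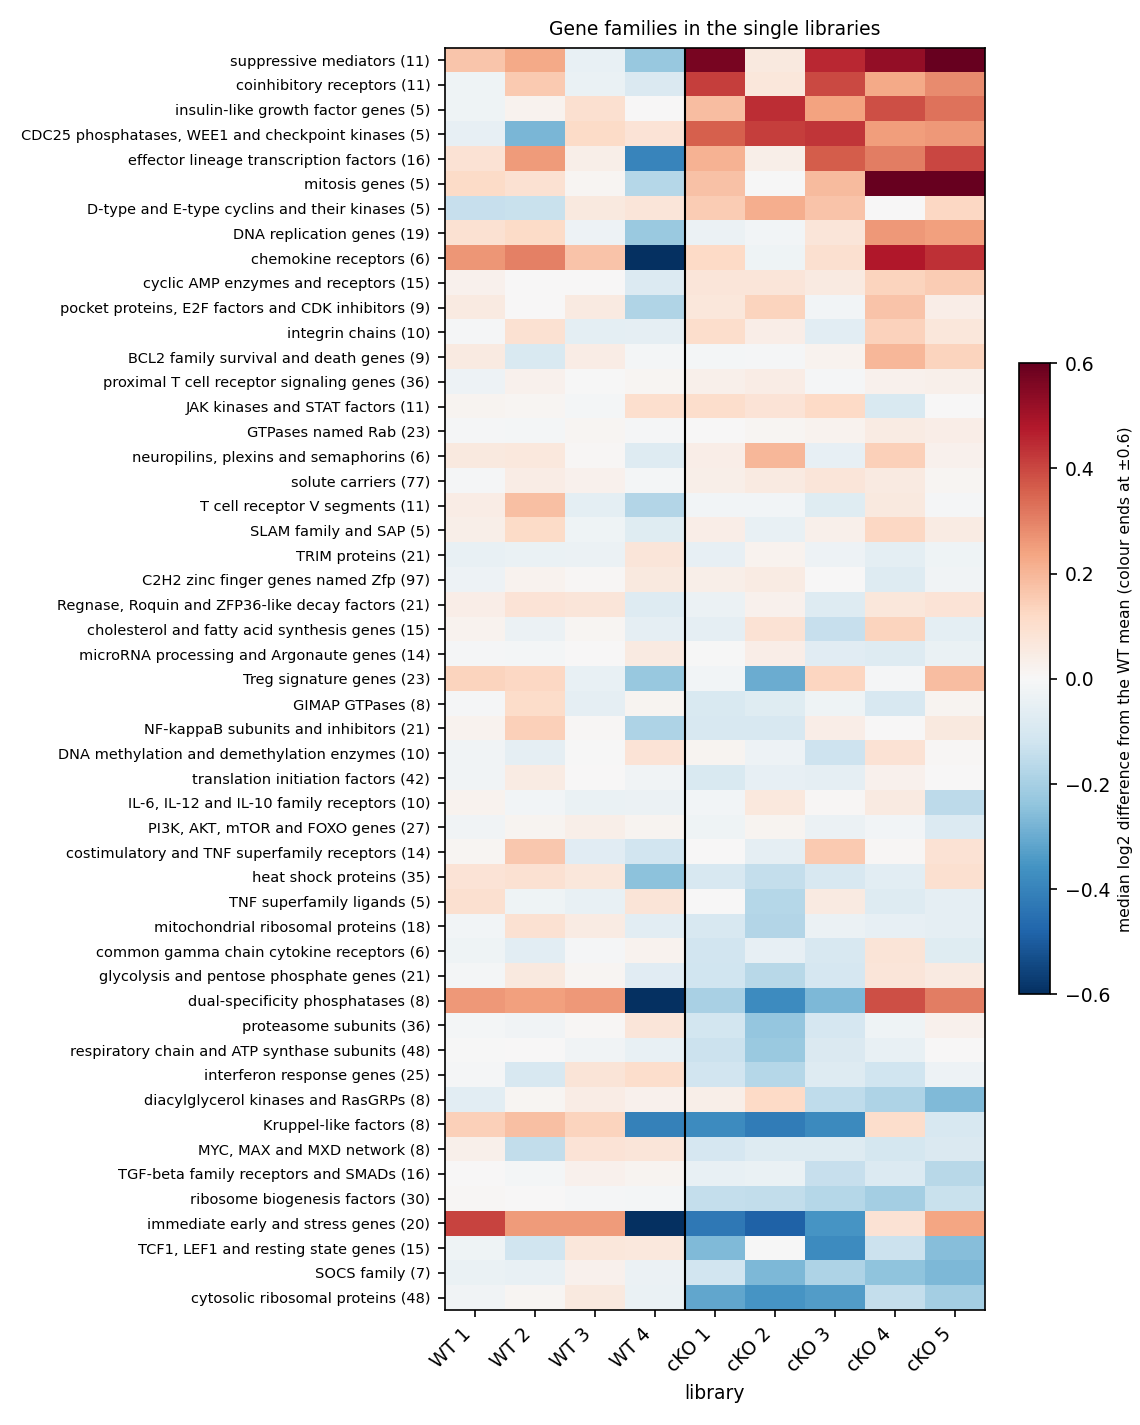
Median log2 difference from the WT mean over the abundant members of each family (rows, number of members in brackets) in each of the 9 libraries (columns), from blue (lower) to red (higher), with colours ending at 0.6 in both directions and families ordered as by their median fold change. Cytosolic ribosomal proteins and ribosome biogenesis factors are blue in all 5 cKO libraries, whereas immediate early genes and dual-specificity phosphatases are blue in cKO replicates 1 to 3 and in WT replicate 4.

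Large families without a shared direction set the scale for the above. Of 312 C2H2 zinc finger genes named Zfp 4 were higher (1.28%) and 1 lower (0.321%), and the median of 97 abundant ones was -0.01. Zfp646 was the most abundant of the called ones with stable values, rising from 7815 ± 722 to 10028 ± 335 (log2 0.36 ± 0.06, limma adjusted p = 0.00334). No member was called among 99 T cell receptor V segments (4 higher and 1 lower at an unadjusted p under 0.05), 43 TRIM proteins (2 and 2), 22 NF-κB subunits and inhibitors (1 and 3), 22 mRNA decay factors of the Regnase, Roquin and ZFP36 kind (2 and 0) and 8 GIMAP GTPases (0 and 2), and neither edgeR nor DESeq2 called a member of these 5 families. Among 17 genes of miRNA processing and Argonaute proteins 1, Ago1, was higher (log2 0.26 ± 0.07, limma adjusted p = 0.0489). Ago1 was no longer called without WT replicate 1, 2 or 3 or cKO replicate 1, 2, 3, 4 or 5, each omitted singly (adjusted p then reached 0.123).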

How the data were processed

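RNA-seq was performed on sorted Tregs. Reads were single-end, and the authors' processing notes name STAR 2.7.2b, DESeq2 1.24.0 and the build GRCm38. The deposited signal per gene and library is a read count divided by a DESeq2 size factor (normalized counts), and multiplied back it was whole for 100.0% of values (tolerance 0.055 normalized counts). The GC content was deposited by the authors as a percent and is used only as a description. The columns of the authors' own comparisons (fold changes, p-values) and the stabilized values were not used. How reads were assigned to genes and strands is not given in the sources used here.

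Groups were taken from the labels. The 4 sorted groups were fitted as means over 14 libraries with limma-trend (R 4.3.3, limma 3.58.1) on log2(normalized count + 1), over autosomal genes with at least 10 normalized counts in 2 of the 9 bulk libraries, and adjusted over 14915 genes. A further 504 genes on sex chromosomes, mitochondrial DNA or scaffolds were left out because sex differs between the groups. The depth was 30055573 to 33988565 reads in genes per library. The test was checked on simulated data. Seed matches were counted per gene in its longest annotated 3′ UTR (GRCm38). The members and gene lists were chosen with earlier results of these data known. Named genes are the 10 abundant called genes with the largest change and no overlap in each direction, up to 3 called members with the smallest adjusted p per family, and 32 listed genes, some of which are not reported here. Penk, Capg, Foxp1, Bach2, Pde3b, Igf2r, Slc22a5, Gbp2, Oas1a and genes called with the sex term were named after their values were seen. Alternatives were edgeR 4.0.16, DESeq2 1.42.0, limma-voom, other filters and pseudocounts, only the 2 groups, covariates and each library left out. Replicate numbers were not used as pairs in the main fit. Tables were handled with python 3.11.15 (numpy 2.4.6, pandas 2.3.3) and drawn with matplotlib 3.10.9.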

Additional observations from a re-analysis of the deposited data

Results flagged for a closer look

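Of 224 groups of libraries examined, 5 cKO or 4 WT libraries for each of 112 named genes, 12 held 1 library far from the rest of its group, and chance alone flags about 1 in 20 groups. WT replicate 4, the library with the lowest immediate early level, was the one apart for 6 genes. Ifngr1 was at 4969.0 normalized counts in this library, below the 7395.5 to 7798.0 of the other WT libraries. Il6ra was at 13599.8 normalized counts in this library, above the 11619.4 to 11696.7 of the other WT libraries. Klf2 was at 24546.0 normalized counts in this library, below the 43355.0 to 47217.3 of the other WT libraries. Dusp2 was at 3962.9 normalized counts in this library, below the 6059.1 to 6210.2 of the other WT libraries. Ctla4 was at 13255.5 normalized counts in this library, below the 32969.2 to 36409.8 of the other WT libraries. Tcf7 was at 37316.4 normalized counts in this library, above the 36074.1 to 36223.4 of the other WT libraries. Dclk2 in cKO replicate 4 was at 808.2 normalized counts, below the 966.6 to 1010.3 of the other cKO libraries. Sla2 in WT replicate 1 was at 1646.2 normalized counts, above the 1471.7 to 1486.2 of the other WT libraries. Adora2a in cKO replicate 2 was at 3038.4 normalized counts, below the 3796.4 to 4057.8 of the other cKO libraries. Oas2 in cKO replicate 1 was at 411.5 normalized counts, above the 352.5 to 365.1 of the other cKO libraries. Pdcd1 in WT replicate 2 was at 3218.2 normalized counts, above the 1988.6 to 2172.4 of the other WT libraries. Ikzf4 in cKO replicate 3 was at 7118.9 normalized counts, above the 6089.2 to 6371.4 of the other cKO libraries.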

How the results depend on the processing

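The counts of 323 higher and 226 lower genes moved most with the choice of libraries and terms. Fitting sex as a term they were 11 and 8, with only libraries of like immediate early level (WT replicates 1 to 3, cKO replicates 4 and 5) 45 and 30, and without WT replicates 2 and 4, an alternative chosen after seeing the data, 154 and 101. Leaving out 1 library gave 187 to 306 higher and 126 to 256 lower genes, each lowest without cKO replicate 1. The immediate early level as a term gave 437 higher and 353 lower genes and DESeq2 457 and 396. edgeR with TMM gave 291 and 215. A filter at 100 normalized counts, pseudocounts of 0.5 and 5, no filter, only the 9 libraries and limma-voom kept both counts within 1.5 times. The cause of these differences was not tested. The replicate number as a block gave 156 and 112. Deviations from the group means correlated over genes at -0.27 to -0.45 between libraries with the same number. They correlated at 0.28 to 0.46 between cKO replicates 1 to 3 and WT replicate 4. Since the deviations also follow other differences between the libraries, they cannot tell whether libraries of the same number were handled together.

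All 323 and 226 genes kept their direction with the sex term, the libraries of like immediate early level, the block, edgeR, DESeq2 and without WT replicates 2 and 4. They were chosen for their change in the same libraries, and most have groups that do not overlap, so this outcome was largely fixed in advance. The difference in median log2 fold change between genes with and without a seed match was 0.04 to 0.06 with 1 library left out. The log2 fold changes that changed sign belonged to genes that were not called: Il2rb (0.060 with like immediate early levels, 0.0029 with edgeR, and -0.042 to 0.015 with 1 library left out), Ccnd1 (-1.33 with the sex term, -0.85 without WT replicates 2 and 4), Chek1 (-0.061 with the sex term), Bmi1 (0.050 with like immediate early levels, 0.0081 without WT replicates 2 and 4) and Smc4 (-0.00070 to 0.038 with 1 library left out). A gene with a mean under 100 normalized counts that was not called may still differ.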
